A study of Mus musculus with 12 samples.

Results

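The suppressors of cytokine signalling (SOCS) are a family of intracellular proteins that damp the signals of cytokine receptors, and their 8 mouse genes are Cish and Socs1 to Socs7. A probe set, the group of array probes that reads a transcript, was taken for a member where its only annotated symbol was that member, and 11 probe sets met this. Where a gene had several, the brightest on average over the 12 arrays was used. For Socs2 the one used was the brighter through the CD4 groups alone. All 8 genes were found among the 22180 named genes, and all 8 passed the filter on low values that left 14323 genes for testing. The question of the study is whether linoleic acid, an polyunsaturated dietary fatty acid, acts differently on CD8 and on CD4 T cells. Splenocytes of mice were cultured for 24 h in the presence or absence of 50 µM linoleic acid, and CD4+ or CD8+ T cells were then sorted, so each T cell population shared its culture with the other spleen cells. The 4 groups of 3 arrays are CD8 T cells of linoleic acid culture, CD8 T cells of control culture, CD4 T cells of linoleic acid culture and CD4 T cells of control culture. The sources used here do not give the strain, age or sex of the mice. Arrays are numbered 1 to 3 in each group, and no label says that the numbers stand for separate mice or cultures. The spread behind every p-value is that between these arrays and may be technical.

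Many cytokines of lymphocytes act through receptor chains that bind Janus kinases (JAKs), which phosphorylate the STAT transcription factors. Several SOCS genes are themselves STAT targets, and their proteins feed back on the receptor or its kinase through an SH2 domain and a SOCS box that recruits a ubiquitin ligase. In T cells, CIS (encoded by Cish) and SOCS2 are known as products of STAT5 signalling, SOCS1 as an inhibitor of interferon and interleukin-2 signals, and SOCS3 as an inhibitor at gp130, the shared receptor chain of the interleukin-6 family. SOCS4 to SOCS7 are less studied in T cells and have been tied mainly to growth factor and insulin signalling.

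The promoter windows of 3 members are shown because Cish differed between the T cell types while Socs1 and Socs3, inhibitors with well-studied STAT feedback, did not pass the test. Each window runs from 250 bases before an annotated start of the gene to 30 bases after it. It is printed 5′ to 3′ on the strand of the gene and was taken from RefSeq (GRCm38.p6). For Socs3 that start is not the outermost one, since the gene spans bases 117966079 to 117970336 and its window lies inside that span. Capitals mark matches to TTCNNNGAA, the palindromic core that STAT factors are known to bind, which reads the same on both strands.
Cish, chr9:107296409-107296688, plus strand: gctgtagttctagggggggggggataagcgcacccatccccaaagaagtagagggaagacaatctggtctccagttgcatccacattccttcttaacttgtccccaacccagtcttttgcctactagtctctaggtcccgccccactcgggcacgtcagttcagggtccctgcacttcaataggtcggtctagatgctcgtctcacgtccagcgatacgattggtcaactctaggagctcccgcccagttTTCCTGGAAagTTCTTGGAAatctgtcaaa
Socs3, chr11:117969337-117969616, minus strand: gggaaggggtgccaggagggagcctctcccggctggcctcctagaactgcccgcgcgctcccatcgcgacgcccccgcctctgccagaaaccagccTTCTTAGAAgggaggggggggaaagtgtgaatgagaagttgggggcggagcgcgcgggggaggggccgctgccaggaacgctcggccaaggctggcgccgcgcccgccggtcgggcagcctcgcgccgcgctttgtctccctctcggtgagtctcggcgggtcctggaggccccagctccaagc
Socs1, chr16:10785507-10785786, minus strand: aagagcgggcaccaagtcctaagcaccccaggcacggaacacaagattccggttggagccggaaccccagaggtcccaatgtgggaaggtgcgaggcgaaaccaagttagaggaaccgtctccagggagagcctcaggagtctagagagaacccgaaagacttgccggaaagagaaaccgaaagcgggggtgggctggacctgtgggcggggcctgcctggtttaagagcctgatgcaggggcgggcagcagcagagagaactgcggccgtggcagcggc
The Cish window holds 2 matches, TTCCTGGAA beginning at the start itself and TTCTTGGAA beginning 11 bases after it. The Socs3 window holds 1 match, TTCTTAGAA, which begins 154 bases before its start inside the gene, and the Socs1 window holds 0. Among 32851 promoter windows of this length, 7.83% hold the motif and 0.408% hold 2 or more. A window was found for 4 of the 8 members, the fourth being Socs4, whose window holds 0 matches. A match is only a description of the letters and not a measured site.

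The arrays were alike in scale, with medians of log2 4.66 to 4.80, and any pair of them correlated at 0.946 to 0.984. The sorts matched their labels. Cd8a was 5.04 higher and Cd4 5.04 lower on the log2 scale in CD8 than in CD4 T cells over both cultures. A list of 11 measured B cell genes averaged log2 5.94 to 6.41 on the arrays numbered 1 and 7.19 to 7.82 on those numbered 2 and 3, in every group. The 95th percentile of 1394 chemosensory receptor genes, log2 5.11, served as a gauge of array background. Socs1, Socs3, Socs4 and Socs7 lay above it on 12 of 12 arrays, Cish on 10, Socs5 on 8, Socs2 on 6 and Socs6 on 0. Levels of different genes come from different probes and are not compared.

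**Figure D1:**
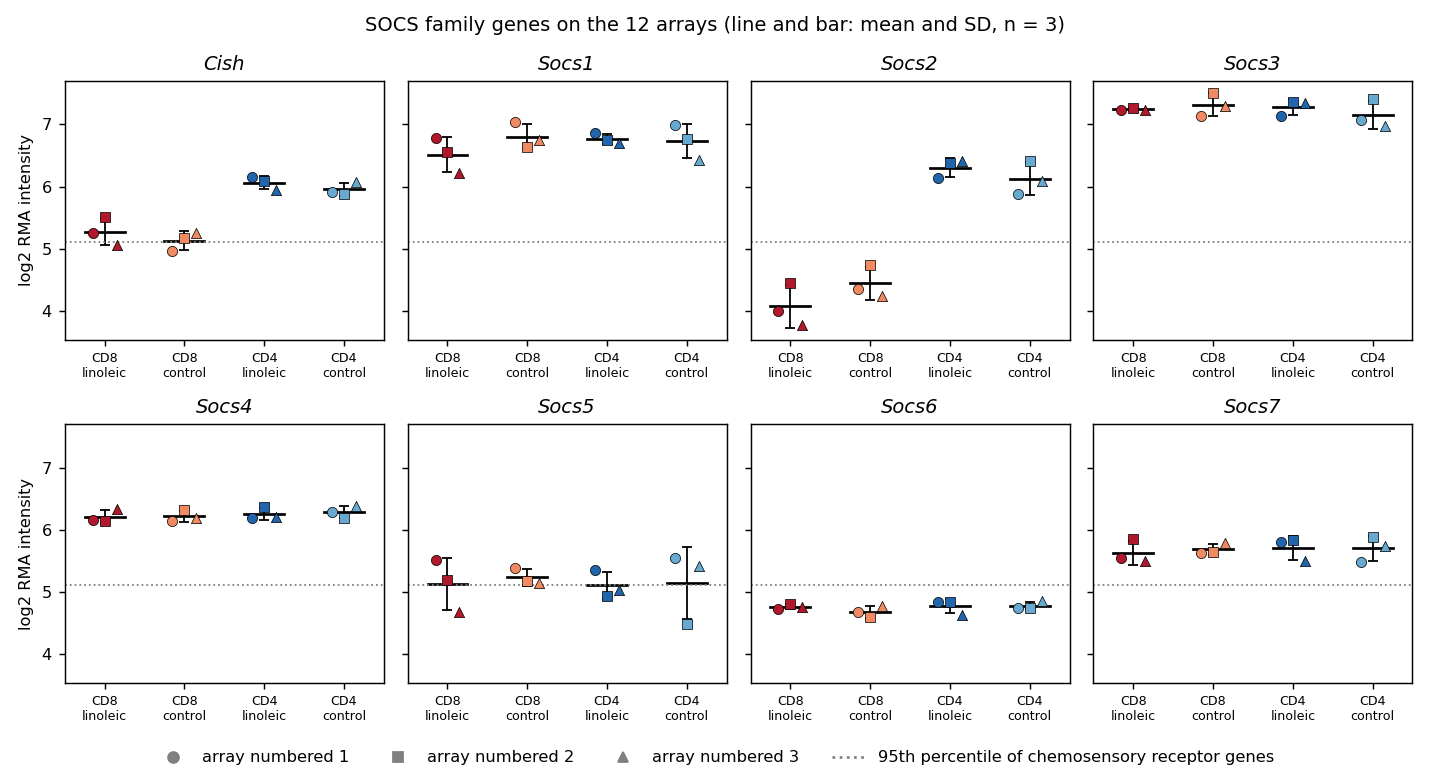
The log2 RMA intensity of each SOCS family gene (vertical axis) is plotted for every array of the 4 groups (horizontal axis), with symbols for the array number and a line and bar for the mean and SD of 3 arrays. In Socs2 and Cish all 6 CD8 arrays lie below all 6 CD4 arrays, and in the other 6 genes the groups overlap; the dotted line is the background gauge at log2 5.11.

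The first comparison asks which SOCS genes separate the cytotoxic CD8 T cells from the helper CD4 T cells. Of the 8 members, 2 were lower in CD8 T cells and 0 were higher, in each culture alone and over both. They were Socs2 and Cish, the members best known as STAT5 products. Over both cultures, with 6 arrays of each cell type, the chosen Socs2 probe set was at least 2.14-fold lower in CD8 T cells (measured log2 difference -1.96, SE 0.14). The other Socs2 probe set was at least 1.14-fold lower. Cish was 1.75-fold lower on its chosen probe set (log2 difference -0.81, SE 0.10). The Socs2 folds are bounds because none of their CD8 arrays rose above the background gauge, which was set in place of the CD8 mean. Of all genes tested, 2.76% were lower in CD8 T cells over both cultures, 1.31% in linoleic acid culture and 0.929% in control culture, by the same rule of a limma p under 0.05 after Benjamini-Hochberg adjustment.

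Socs2 encodes an inhibitor best known for restraining growth hormone signalling, which runs through STAT5. In linoleic acid culture the arrays numbered 1, 2 and 3 read log2 3.99, 4.45 and 3.77 in CD8 T cells, against 6.13, 6.37 and 6.41 in CD4 T cells. In control culture they read 4.36, 4.74 and 4.24 in CD8 T cells, against 5.87, 6.40 and 6.10 in CD4 T cells. The highest CD8 array of either culture, 4.74, thus lay below the lowest CD4 array, 5.87. Such a separation with CD8 arrays lower was found for 8.98% of genes in linoleic acid culture, 7.53% in control culture and 2.64% over both cultures together. The chosen Socs2 probe set was at least 2.28-fold lower in CD8 T cells of linoleic acid culture (measured log2 difference -2.23, 95% interval -2.64 to -1.82, limma adjusted p = 9.1e-06). In control culture it was at least 2.01-fold lower (measured log2 difference -1.68, 95% interval -2.09 to -1.27, limma adjusted p = 0.000163). The measured difference over both cultures, -1.96, had a 95% interval of -2.25 to -1.67 and a limma adjusted p of 4.86e-07. An exact two-sided permutation of CD8 and CD4 arrays within both cultures gave p = 0.005, the smallest its 400 relabellings allow. Within a culture the exact p was 0.1, the smallest that 3 arrays against 3 allow. Neither these p-values nor the separation of the arrays allows for the choice of probe set. Chosen by brightness, it was the brighter one through the CD4 groups alone. Its mean over the 6 CD8 arrays, log2 4.26, lay under the filter of log2 4.28. Array by array within a number, CD8 minus CD4 was -2.13, -1.92 and -2.64 in linoleic acid culture. In control culture, where no pairing of CD8 and CD4 arrays was taken, it was -1.51, -1.66 and -1.86.

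The group means of Socs2 were 4.07 ± 0.34 in CD8 T cells with linoleic acid and 4.45 ± 0.26 in CD8 controls, and 6.30 ± 0.15 in CD4 T cells with linoleic acid and 6.12 ± 0.27 in CD4 controls (SD, n = 3 each). The CD8 groups were thus lowest and the CD4 groups highest, the groups of a cell type overlapped, and the CD8 groups did not overlap the CD4 groups. All 6 CD8 arrays lay below the background gauge and all 6 CD4 arrays lay above it. In sorted bulk RNA, fewer cells of a type and less RNA per cell cannot be told apart.

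Cish encodes CIS, which binds activated receptors of STAT5-using cytokines and dampens interleukin-2 and T cell receptor signals. In linoleic acid culture the arrays numbered 1, 2 and 3 read log2 5.25, 5.50 and 5.07 in CD8 T cells, against 6.15, 6.09 and 5.94 in CD4 T cells. In control culture they read 4.96, 5.17 and 5.25 in CD8 T cells, against 5.91, 5.88 and 6.08 in CD4 T cells. Every CD8 array was therefore below every CD4 array. Cish was 1.73-fold lower in CD8 T cells of linoleic acid culture (log2 difference -0.79, 95% interval -1.08 to -0.50, limma adjusted p = 0.00554). In control culture it was 1.77-fold lower (log2 difference -0.83, 95% interval -1.12 to -0.54, limma adjusted p = 0.00336). Over both cultures the difference of -0.81 (95% interval -1.01 to -0.60) had a limma adjusted p of 0.000104 and an exact permutation p of 0.005. The group means were 5.27 ± 0.22 in CD8 T cells with linoleic acid and 5.13 ± 0.15 in CD8 controls, and 6.06 ± 0.11 in CD4 T cells with linoleic acid and 5.95 ± 0.11 in CD4 controls (SD, n = 3 each). Here too the groups of a cell type overlapped. The CD8 arrays at 4.96 in control culture and 5.07 with linoleic acid lay below the background gauge of log2 5.11, and the CD8 control mean lay close to it. The call of Cish did not hold everywhere. Without the 4 arrays numbered 1 its adjusted p was 0.0668 in linoleic acid culture and 0.0544 in control culture, and with only the 6 arrays of linoleic acid culture in the fit it was 0.0515.

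Regulatory T cell genes moved with both members. All 5 markers of the list were called lower in CD8 T cells over both cultures, as were 2.76% of all genes tested. The 5 included Foxp3, the lineage factor of regulatory T cells, and Ctla4, an inhibitory receptor, which was 1.87-fold lower. The mean of the 5 genes was log2 6.54 to 6.67 in CD8 T cells with linoleic acid, 6.39 to 6.71 in CD8 controls, 7.98 to 8.25 in CD4 T cells with linoleic acid and 8.14 to 8.30 in CD4 controls. All 5 lay above the background gauge in every group mean. The part of regulatory T cells in the Socs2 and Cish differences was not tested. The B cell list was not called between the cell types in the fit without a block, with 0 of 11 genes past the limma test and 0 at an unadjusted p under 0.05. Its values were nevertheless lower in CD8 T cells, as were Socs2 and Cish, once arrays of the same number were set side by side. Its mean on the arrays numbered 1, 2 and 3 was log2 5.96, 7.32 and 7.40 in CD8 T cells, against 6.41, 7.81 and 7.82 in CD4 T cells, with linoleic acid. In control culture it was 5.94, 7.19 and 7.33 in CD8 T cells, against 6.36, 7.69 and 7.56 in CD4 T cells. CD8 was thus lower within every number, although no pairing was taken between CD8 and CD4 controls. All 11 genes had a difference below 0 over both cultures (median -0.45). With the array number as a block 7 of the 11 were called lower, as were 780 of 14323 genes tested. Over the 4 groups, the arrays numbered 1, 2 and 3 averaged log2 5.09, 5.49 and 5.13 for Socs2 and 5.57, 5.66 and 5.58 for Cish. From number 1 to number 2 the B cell list rose more than either. The part of B cell RNA in the Socs2 and Cish differences was not tested.

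Socs2 and Cish each had a second probe set, and these differed less between the cell types. The second Socs2 probe set (17244486) read log2 4.81, 5.03 and 4.99 in CD8 T cells with linoleic acid, against 5.31, 5.22 and 5.30 in CD4 T cells. In control culture it read 4.95, 5.06 and 5.01 in CD8 T cells, against 5.24, 5.45 and 5.29 in CD4 T cells. The CD8 arrays again all lay below the CD4 arrays, but the difference over both cultures was -0.33 (SE 0.08, limma adjusted p = 0.0240 over 15087 probe sets) where the chosen probe set gave -1.96. Its CD8 arrays too lay below the background gauge. Within the cultures the adjusted p of the second probe set was 0.202 with linoleic acid and 0.247 in controls. The chosen Socs2 probe set (17274184) was the brighter one through the CD4 groups alone, and averaged log2 4.26 over the 6 CD8 arrays where the second averaged 4.97. That CD8 mean lay under the filter of log2 4.28, so it passed the filter through the cell type where it was high. The probe set stands apart in its numbering too. Of the 20 probe sets nearest to it in number, 19 are of genes that RefSeq places on chromosome 12 and 0 of genes on chromosome 10, where RefSeq places Socs2. For the second Socs2 probe set, 20 of 20 such neighbours are of chromosome 10. Which transcript the chosen probe set reads was not tested, and the larger Socs2 difference rests on it.

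The second Cish probe set (17530881) read log2 5.30, 5.46 and 5.18 in CD8 T cells with linoleic acid, against 5.46, 5.17 and 5.21 in CD4 T cells. In control culture it read 5.16, 5.04 and 5.03 in CD8 T cells, against 5.34, 5.37 and 5.29 in CD4 T cells. Its groups overlapped in linoleic acid culture and not in control culture. The log2 differences were 0.03 with linoleic acid, -0.26 in controls and -0.11 over both, with limma adjusted p-values of 0.946, 0.527 and 0.654. When the probe sets of a gene were averaged, the difference over both cultures was -1.14 for Socs2 and -0.46 for Cish, both still past the test. Cish in linoleic acid culture then lost its call, at -0.38 with a limma adjusted p of 0.164.

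**Figure D2:**
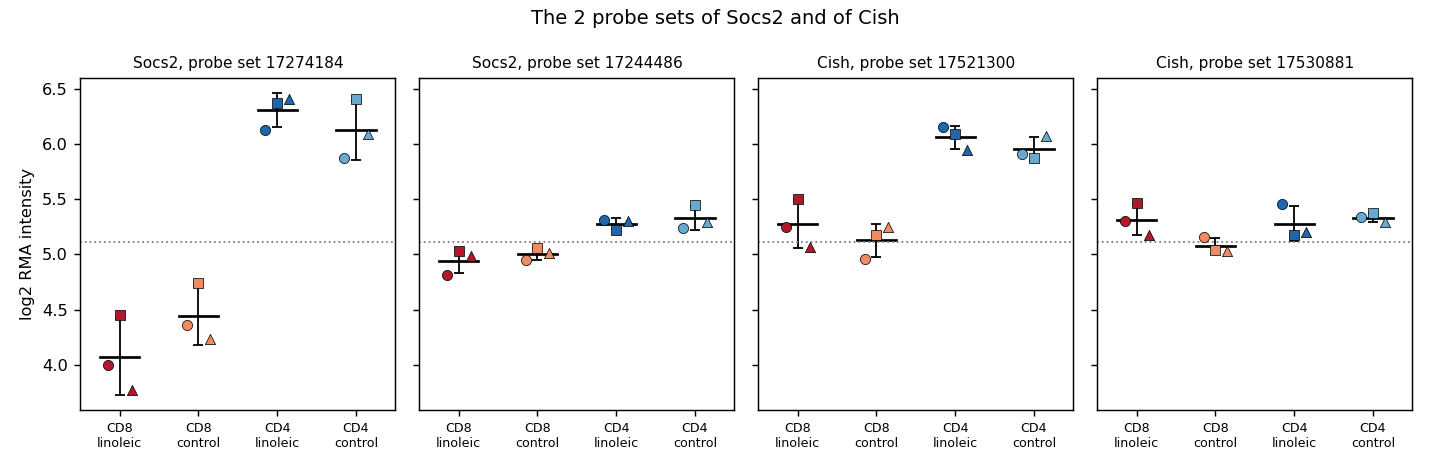
The log2 RMA intensity (vertical axis) of both probe sets of Socs2 and of Cish is plotted for every array of the 4 groups (horizontal axis), with the mean and SD of 3 arrays. The probe set that stood for each gene is left of its second probe set. Its log2 difference over both cultures, CD8 minus CD4, is the larger in size (-1.96 against -0.33 for Socs2 and -0.81 against -0.11 for Cish). In linoleic acid culture the second Cish probe set is at 0.03 and its groups overlap. The dotted line is the background gauge.

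The other 6 members did not pass the test between the cell types. Their log2 differences over both cultures, CD8 minus CD4, ranged from -0.09 to 0.06, with 95% intervals between -0.35 and 0.44 and limma adjusted p-values of 0.841 to 0.948. A p that misses the threshold does not show that the levels are alike, and the widest interval, that of Socs5, still held differences of up to 0.44.

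Socs1 and Socs3 are the feedback inhibitors that act on the JAK kinases directly. Socs1 read log2 6.77, 6.55 and 6.22 in CD8 T cells with linoleic acid and 7.03, 6.64 and 6.74 in CD8 controls. It read 6.86, 6.74 and 6.69 in CD4 T cells with linoleic acid and 6.98, 6.77 and 6.43 in CD4 controls. The 4 groups overlapped, and CD8 minus CD4 was -0.25 (95% interval -0.62 to 0.11) with linoleic acid and 0.07 (95% interval -0.29 to 0.44) in controls. Socs3 read 7.22, 7.26 and 7.23 in CD8 T cells with linoleic acid and 7.14, 7.51 and 7.30 in CD8 controls. It read 7.13, 7.35 and 7.35 in CD4 T cells with linoleic acid and 7.08, 7.41 and 6.98 in CD4 controls. Its groups overlapped as well, with CD8 minus CD4 at -0.04 with linoleic acid and 0.16 in controls. The second Socs3 probe set, with array values of log2 4.19 to 4.90, gave -0.12 over both cultures (limma adjusted p = 0.778).

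Socs4 and Socs5 share a long N-terminal region and are known as regulators of the epidermal growth factor receptor. Socs4 varied little, from log2 6.14 to 6.38 over the 12 arrays, with group means of 6.21 ± 0.10 and 6.22 ± 0.09 in CD8 T cells with and without linoleic acid and 6.26 ± 0.10 and 6.28 ± 0.10 in CD4 T cells (SD, n = 3 each). Socs5 had the widest spread among the 6, from 4.48 to 5.55, and both of these extremes were CD4 controls. Its group means were 5.13 ± 0.42 and 5.23 ± 0.13 in CD8 T cells with and without linoleic acid, and 5.10 ± 0.22 and 5.15 ± 0.58 in CD4 T cells (SD, n = 3 each). CD8 minus CD4 over both cultures was -0.05 for Socs4 and 0.05 for Socs5, both within their SE of 0.08 and 0.18.

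Socs6 and Socs7 are known for roles in receptor tyrosine kinase and insulin signalling. Socs6 lay below the background gauge on all 12 arrays, from log2 4.59 to 4.85, so its differences could not be told from background. Socs7 ranged from 5.48 to 5.88, with lowest and highest values of 5.50 and 5.85 in CD8 T cells and of 5.48 and 5.88 in CD4 T cells. CD8 minus CD4 over both cultures was -0.05 for both genes.

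**Figure D3:**
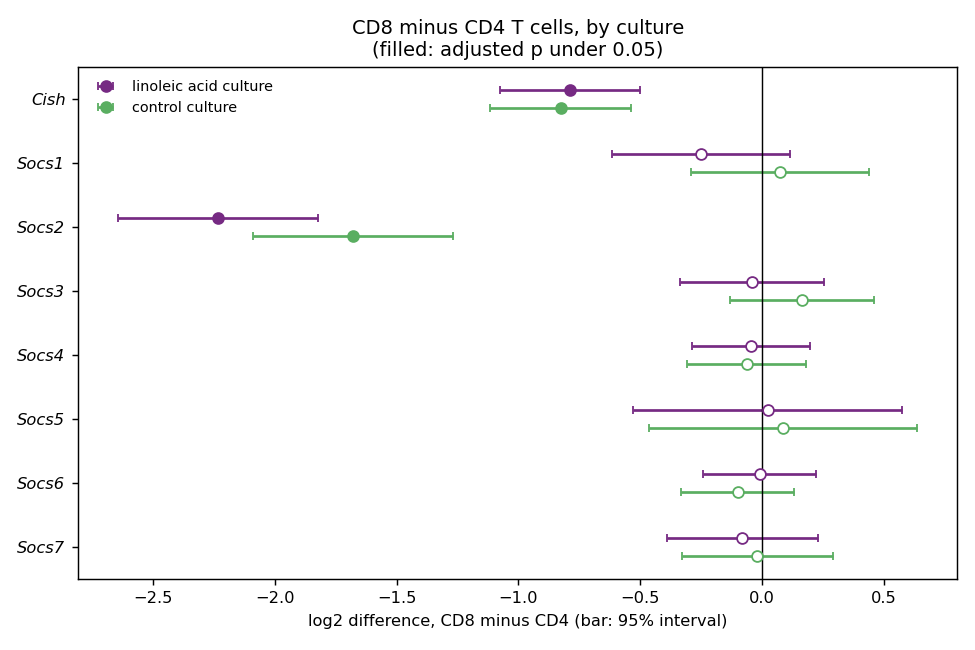
The log2 difference, CD8 minus CD4 T cells (horizontal axis), is plotted with its 95% interval for each SOCS family gene (vertical axis) in linoleic acid culture (upper of each pair) and control culture (lower). Filled points have an adjusted p under 0.05. Socs2 and Cish lie left of 0 in both cultures, and the intervals of the other 6 genes span 0.

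The second comparison is the effect of linoleic acid in each cell type. The test called 0 of 8 members in CD8 T cells and 0 of 8 in CD4 T cells. The share of all genes tested that it called was 0% in both. An unadjusted limma p under 0.05 was found for 5.08% of genes in CD8 T cells and 2.6% in CD4 T cells, with 0 members among them. These values are of the fit without a block. With the array number as a block the test called 1 of 14323 genes in each cell type, and 0 members. Linoleic acid minus control ranged from -0.37 to 0.14 in CD8 T cells and from -0.04 to 0.18 in CD4 T cells over the 8 members. The median member was at -0.07 and the median of all genes at -0.06 in CD8 T cells, and in CD4 T cells these medians were 0.02 and 0.00.

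Socs2 held the lowest of these values in CD8 T cells. Its arrays numbered 1, 2 and 3 read 3.99, 4.45 and 3.77 with linoleic acid, against 4.36, 4.74 and 4.24 without it, so each treated array was below the control array of its number while the groups overlapped. The difference was -0.37 (SE 0.19, 95% interval -0.78 to 0.04, limma adjusted p = 0.757), and within numbers it was -0.37, -0.29 and -0.46. With the array number as a block the unadjusted limma p was 0.0126 and the adjusted p 0.319. In CD4 T cells the difference was 0.18 (95% interval -0.23 to 0.59, limma adjusted p = 0.9998), with 0.26, -0.03 and 0.32 within numbers. All of the CD8 values lay below the background gauge, so their difference could not be told from background. The second Socs2 probe set gave -0.06 in CD8 T cells and -0.05 in CD4 T cells.

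Socs1 followed in size in CD8 T cells, at -0.29 (SE 0.17, 95% interval -0.66 to 0.08, limma adjusted p = 0.757), with -0.26, -0.09 and -0.52 within numbers. In CD4 T cells it was at 0.04 (95% interval -0.33 to 0.40), with values to both sides of 0 within numbers. With the array number as a block its CD8 difference had an unadjusted limma p of 0.0284 and an adjusted p of 0.335. Socs2 and Socs1 were the 2 of 8 members with an unadjusted p under 0.05 in that fit, as had 13.5% of all genes.

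The remaining members gave smaller or less even values with linoleic acid. Cish was at 0.14 (95% interval -0.14 to 0.43) in CD8 T cells and 0.11 (95% interval -0.18 to 0.40) in CD4 T cells, with the arrays numbered 3 running the other way in both. The second Cish probe set was at 0.24 in CD8 T cells (limma adjusted p = 0.762) and -0.05 in CD4 T cells. Socs3 was at -0.08 in CD8 T cells and 0.13 in CD4 T cells. Socs4, Socs5, Socs6 and Socs7 ranged from -0.11 to 0.08 in CD8 T cells and from -0.04 to 0.01 in CD4 T cells. For the 6 members other than Socs2 and Cish, the intervals reached at most from -0.66 to 0.44 in CD8 T cells and from -0.60 to 0.51 in CD4 T cells. Averaged over both cell types, the members ranged from -0.13 to 0.13, with 0 of 8 called and an exact permutation p of 0.17 or higher. With the array number as a block, which the same-numbered arrays bore out for these comparisons, the test called 26 of 14323 genes for the average over both cell types (0.182%), with 0 members among them.

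**Figure D4:**
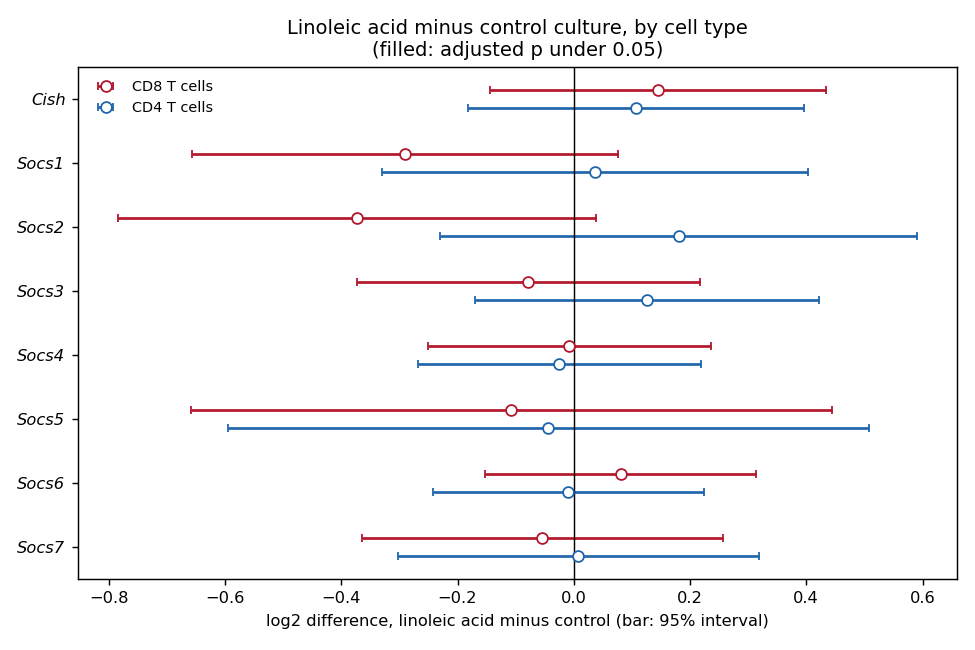
The log2 difference, linoleic acid minus control culture (horizontal axis), is plotted with its 95% interval for each SOCS family gene (vertical axis) in CD8 T cells (upper of each pair) and CD4 T cells (lower). All 16 intervals span 0, and the lowest point is Socs2 in CD8 T cells at -0.37.

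The third comparison is the one the series was built for, whether linoleic acid acted differently in CD8 and CD4 T cells. The test of that difference called 0 of 8 members and 0 of 14323 genes, and 2.35% of genes had an unadjusted limma p under 0.05. The largest value among the members was that of Socs2, an effect in CD8 T cells minus that in CD4 T cells of -0.55 (SE 0.27, 95% interval -1.13 to 0.03, limma adjusted p = 0.953). Set side by side by number it was -0.62, -0.26 and -0.78, although no pairing was taken between CD8 and CD4 controls. The CD8 side of this value is a difference between arrays that all lay below the background gauge, so it could not be told from background. With the array number as a block, which also pairs the controls by number, the unadjusted limma p was 0.0095 and the adjusted p 0.600. In that fit 8.3% of genes had an unadjusted p under 0.05, with Socs2 alone among the members. The second Socs2 probe set gave -0.01 (SE 0.15). Socs1 was at -0.33 (95% interval -0.84 to 0.19), Socs3 at -0.20 (95% interval -0.62 to 0.21) and Cish at 0.04 (95% interval -0.37 to 0.45). The other 4 members lay between -0.06 and 0.09.

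The partners of the SOCS proteins give the setting of these values. Over both cultures 4.71% of all genes tested were called between CD8 and CD4 T cells, and the median gene was at -0.01. Of 18 tested receptor chains for cytokines that use JAK and STAT, 3 were higher and 1 was lower in CD8 T cells, with a list median of 0.05. The lower one was Il2ra, the high-affinity chain of the interleukin-2 receptor, at 4.87-fold (log2 difference -2.28, limma adjusted p = 1.59e-08). The higher ones were Il10rb, a chain shared by interleukin-10 family receptors (1.73-fold), Ifnar2, a chain of the type I interferon receptor (1.32-fold), and Il27ra, the interleukin-27 receptor (1.24-fold). Of 3 tested JAK kinases, Jak2 was 1.28-fold lower and the other 2 did not pass. Of 6 tested STAT factors, 2 were lower, Stat5b by 1.52-fold and Stat2, a partner in interferon signalling, by 1.45-fold. The STAT list median was -0.21. Il2rg and Jak3 were not analysed here.

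For the SOCS box machinery and the inhibitors outside the family, the counts called between the cell types were low, as was the share of all genes called (4.71%). Of 8 tested parts of the ubiquitin ligases that SOCS boxes recruit, 0 passed the limma test. The smallest p-values belonged to Eloc, the elongin C subunit (-0.23, limma adjusted p = 0.336), and Arih2, a ligase partner of cullin 5 complexes (-0.15, limma adjusted p = 0.539). Of 13 tested proteins of other SOCS box families, 1 passed, Asb2, which was 1.48-fold lower in CD8 T cells (limma adjusted p = 0.00427). Of 12 inhibitors of cytokine signalling outside the SOCS family, 0 passed the limma test. The smallest p-values there were those of Pias2, a SUMO ligase that binds STATs (-0.44, limma adjusted p = 0.0929), and Ptpn1, a phosphatase of JAK kinases (-0.26, limma adjusted p = 0.104).

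Genes known as STAT5 targets were called to both sides, and the called STAT3 targets were lower in CD8 T cells. Of all genes tested, 4.71% were called over both cultures and 2.76% were lower in CD8 T cells. Of 13 STAT5 targets outside the SOCS family, CD8 T cells had 3 higher and 5 lower, and the list median was -0.23. Il2ra and Tnfrsf4, the costimulatory receptor OX40, led the lower ones at 4.87-fold and 3.98-fold, with the cytokine gene Lta at 1.57-fold. Bcl2, a survival factor, was 1.96-fold higher. Of 7 tested STAT3 targets, 3 were lower and 0 higher, namely Hif1a by 1.44-fold, Batf by 1.33-fold and Mcl1 by 1.31-fold. The list median was -0.37. Mcl1 and Pim1 belong to both lists, so the lists are not separate, and Mcl1 counts among the lower genes of each. Il2ra also belongs to the regulatory T cell list, whose part was not tested here either. For linoleic acid minus control, 0 genes of these 8 lists passed the limma test in either cell type. An unadjusted limma p under 0.05 was found for 0 to 2 genes of a list in CD8 T cells and 0 to 3 in CD4 T cells. Of all genes tested, 5.08% had one in CD8 and 2.6% in CD4 T cells. The 3 in CD4 T cells were among the 8 tested SOCS box ligase parts. That list had a median of -0.16 in both cell types, where all genes had -0.06 in CD8 and -0.005 in CD4 T cells. What lies behind these values was not tested.

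**Figure D5:**
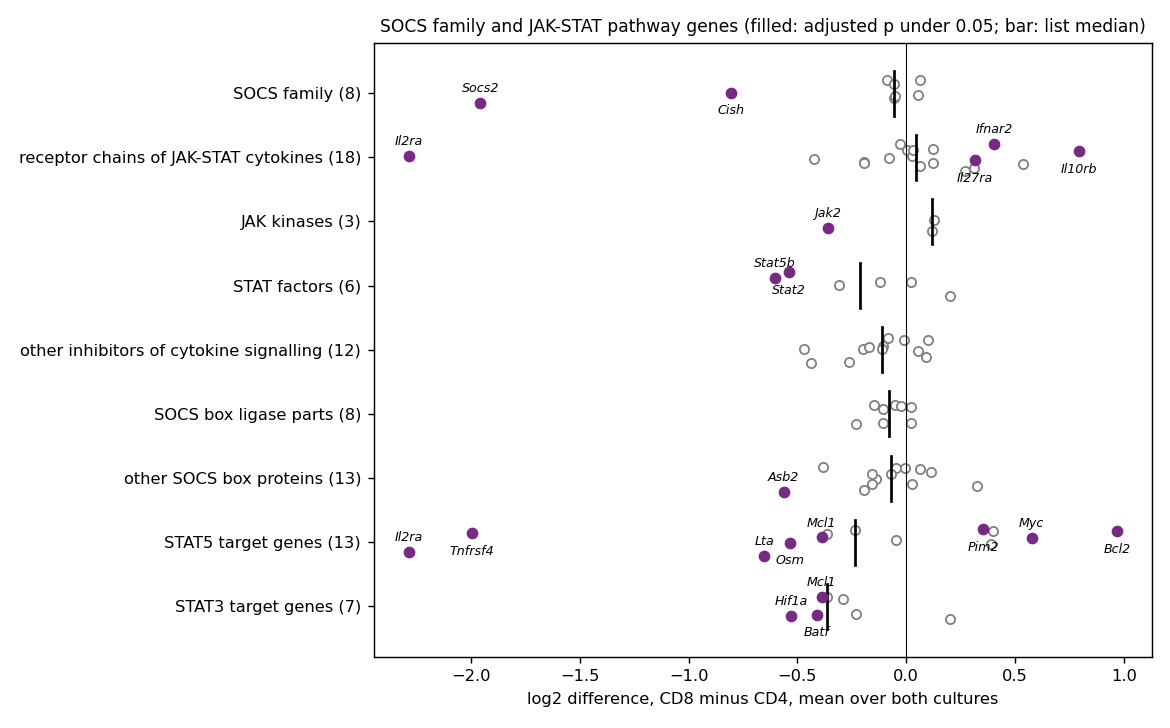
The log2 difference, CD8 minus CD4 T cells averaged over both cultures (horizontal axis), is plotted for each tested gene of the SOCS family and of 8 pathway lists (vertical axis, with the number of genes tested). Filled points have an adjusted p under 0.05 and are named, and black bars are list medians; the SOCS family has 2 filled points left of 0 and 6 open points between -0.09 and 0.06.

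Among the genes searched, those whose levels followed Socs2 most closely over the 12 arrays were Ecm1 (Pearson r = 0.972), Itih5 (r = 0.971) and Il2ra (r = 0.970). For Cish they were Cd40lg (r = 0.964), Lpcat1 (r = 0.958) and Tbc1d4 (r = 0.955). All 6 genes were lower in CD8 T cells, by 0.83 on the log2 scale for Lpcat1 up to 3.68 for Cd40lg, which encodes the CD40 ligand of helper T cells. These correlations are descriptions, since the 12 arrays fall into a CD8 and a CD4 set and share their normalization. They were picked as the highest among 14323 genes.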

How the data were processed

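Total RNA of sorted T cells was measured on 12 Affymetrix MoGene-2_0-st arrays. The deposited values are log2 intensities of 41345 probe sets, made by the authors with RMA (background correction, quantile normalization and probe summary) per the submitters' processing notes. The sources used here do not give its software, summary level or genome build. Values were used as deposited. Of the probe sets, 23521 carried 1 gene symbol in the platform annotation, 1814 carried several and 16010 none, and only the first kind was named. Genes with a mean under log2 4.28, the 40th percentile, were left out.

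Comparisons were contrasts of group means in limma 3.58.1 (R 4.3.3; lmFit, eBayes, two-sided, no block, 8 residual and 5.67 prior degrees of freedom) on all 12 arrays, with Benjamini-Hochberg adjustment over 14323 genes at 0.05. SEs and intervals of differences come from that fit. Single values were also compared by exact permutation, and the number of arrays limits the precision. All members were named, with up to 4 called genes, or else 2 genes, of smallest p per pathway list. The 3 genes most correlated with Socs2 and with Cish were named too, apart from the kinds passed over. The members and lists were chosen with earlier results of these data known, and 1 further pathway list is not reported here.

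Arrays with the same number deviated together from their groups' means, with correlations of 0.19 to 0.61 between linoleic acid and control groups of a cell type and of 0.26 to 0.58 between CD8 and CD4 groups with linoleic acid, so the numbers were taken to pair these arrays. The labels themselves do not state a pairing. Between CD8 and CD4 controls numbers 1, 2 and 3 gave 0.54, -0.01 and 0.42, and no pairing was taken there. That choice rests on number 2 alone, and the pairs taken above would link the controls of a number too. Alternatives were a replicate block, other filters, limma-trend, array weights, fits of fewer arrays, other scalings, averaged probe sets, culture as a random block and each array left out.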

Additional observations from a re-analysis of the deposited data

How the results depend on the processing

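The 2 calls between CD8 and CD4 T cells, Socs2 and Cish, were recomputed under 11 alternatives and with each of the 12 arrays left out. Socs2 kept its call and its direction under all that were run, at -2.05 to -1.14 over both cultures. Apart from the averaged probe sets, these all used the chosen Socs2 probe set alone, so they do not test that choice. It was the brighter one, and passed the filter, through the CD4 groups alone. The second Socs2 probe set by itself had a limma adjusted p of 0.202 with linoleic acid, 0.247 in controls and 0.0240 over both. Cish kept its call and its direction over both cultures, at -0.86 to -0.46. Within a culture the count of members called became 1 in place of 2 in 4 instances, all through Cish. These were linoleic acid culture with only the arrays compared (-0.79, adjusted p = 0.0515), with probe sets averaged (-0.38, adjusted p = 0.164) and without the 4 arrays numbered 1 (-0.73, adjusted p = 0.0668), and control culture without the arrays numbered 1 (-0.77, adjusted p = 0.0544). The averaged probe sets also moved Socs2 by over 1.5 times, since the second probe set differed less. Fits of fewer arrays have fewer degrees of freedom by construction, and the cause was not tested otherwise. The replicate block changed no call of a member, and with it the adjusted p of Socs2 over both cultures was 5.57e-10 and that of Cish 1.86e-05. It moved the number of genes called to 798 in place of 291 in linoleic acid culture, 630 in place of 280 in control culture and 1322 in place of 674 over both. In that fit 5 receptor chains were called higher and 2 lower over both cultures, 2 other inhibitors lower, and of the other SOCS box proteins 1 higher and 1 lower. Array weights gave 644 genes with linoleic acid and 1049 over both, culture as a random block 530 in controls, 642 with linoleic acid and 1223 over both. Leaving out 1 array gave 150 to 322 genes with linoleic acid, 176 to 223 in controls and 512 to 744 over both, and only the 6 arrays of linoleic acid culture gave 138. Of 1042 member values under alternatives, 92 had the other sign, none of them called and each within 1 SE of 0 in the main result, with a size of at most 0.27 afterwards. The stricter filter at the 60th percentile (log2 5.17) left out Socs5 and Socs6. Signals near background limit Socs6 and the CD8 levels of Socs2 and Cish.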

Other observations

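Some members followed the array number. Socs1 was highest on the array numbered 1 in 4 of 4 groups, with a mean over the 4 groups of log2 6.91 for number 1, 6.67 for number 2 and 6.52 for number 3. Socs5 was likewise highest on number 1 in 4 of 4 groups, with means of 5.45, 4.94 and 5.06. Of 14323 genes tested, 12.9% were highest on number 1 in all 4 groups. Socs3 was highest on number 2 in 4 of 4 groups, with means of 7.14, 7.38 and 7.21 for numbers 1 to 3, as were 1.1% of all genes tested on number 2. Beside these values, the list of 11 B cell genes averaged 5.96, 7.32 and 7.40 on the arrays numbered 1, 2 and 3 of CD8 T cells with linoleic acid and 6.36, 7.69 and 7.56 on those of CD4 controls. The myeloid list averaged 5.12 to 6.0 over the 12 arrays. What the numbers mark is not given in the labels, and the part of either list in these values was not tested.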
